A study of Mus musculus with 7 samples.

Results

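Hoxa4, Hoxb4, Hoxc4, Hoxd4, Hoxa5, Hoxb5 and Hoxc5 are the 7 mouse Hox genes of paralogue groups 4 and 5. They were taken as the rows of the deposited expression table that carry these names, 7 of 25965 rows, and all 7 were among the 13997 genes with enough signal to be tested. The table comes from RNA-seq of the tail end of female FVB/N mouse embryos at E9.5, cut about 1 somite length beyond the youngest somite. The sample labels name this tissue postsomitic mesoderm, and the title of the series names it presomitic mesoderm. The null group had 4 libraries of genotype Smchd1 MommeD1/MommeD1, which the series design text equates with null while counting 3 such samples, and the wild-type group had 3 libraries of genotype Smchd1 +/+. Smchd1 is a chromatin protein related to the SMC proteins of cohesin and condensin. Whether a library is 1 embryo or a pool is not stated, so p-values reflect spread between libraries, which may be technical. The column names give a genotype but no sample number, and libraries are lettered within each group in file order.

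Hox genes encode homeodomain transcription factors that set positional identity along the body axis. They lie in the HoxA, HoxB, HoxC and HoxD clusters, which arose by duplication, so that genes at the same place in different clusters are paralogues with similar proteins and overlapping functions. Genes at the 3' end of a cluster are activated early and reach far forward in the embryo, and genes at the 5' end are activated late and stay near the tail. Groups 4 and 5 lie toward the 3' side, are expressed forward to the hindbrain and neck region, and pattern cervical and upper thoracic vertebrae. Retinoic acid and Cdx proteins are known activators of these genes in mouse embryos.

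Each row of the table covers a stretch of a chromosome, given here in mm10, the build named in the submitters' processing notes. The HoxA members were Hoxa4 at chr6:52189671-52191753 and Hoxa5 at chr6:52201754-52204587, both on the minus strand. The HoxB members were Hoxb5 at chr11:96302595-96306120 and Hoxb4 at chr11:96316684-96321638, the HoxC members Hoxc5 at chr15:103013815-103017429 and Hoxc4 at chr15:103018936-103036843, and the HoxD member Hoxd4 at chr2:74721978-74729160, all on the plus strand. All 7 are protein-coding genes in GENCODE M21, whose exons of the named gene cover 80.9% of the Hoxc5 row, 79.0% of Hoxb5, 76.5% of Hoxa4, 66.2% of Hoxa5, 51.8% of Hoxb4, 35.6% of Hoxd4 and 14.3% of Hoxc4. Among 2227 pairs of rows in the whole table in which one lies inside the other, the inner row never had more reads than the outer one in any library, also in the 1685 pairs on opposite strands. This is what counting over the whole stretch, introns included, and without regard to strand would give. A member's value therefore cannot be told apart from reads of other transcripts that cross its row.

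**Figure D1:**
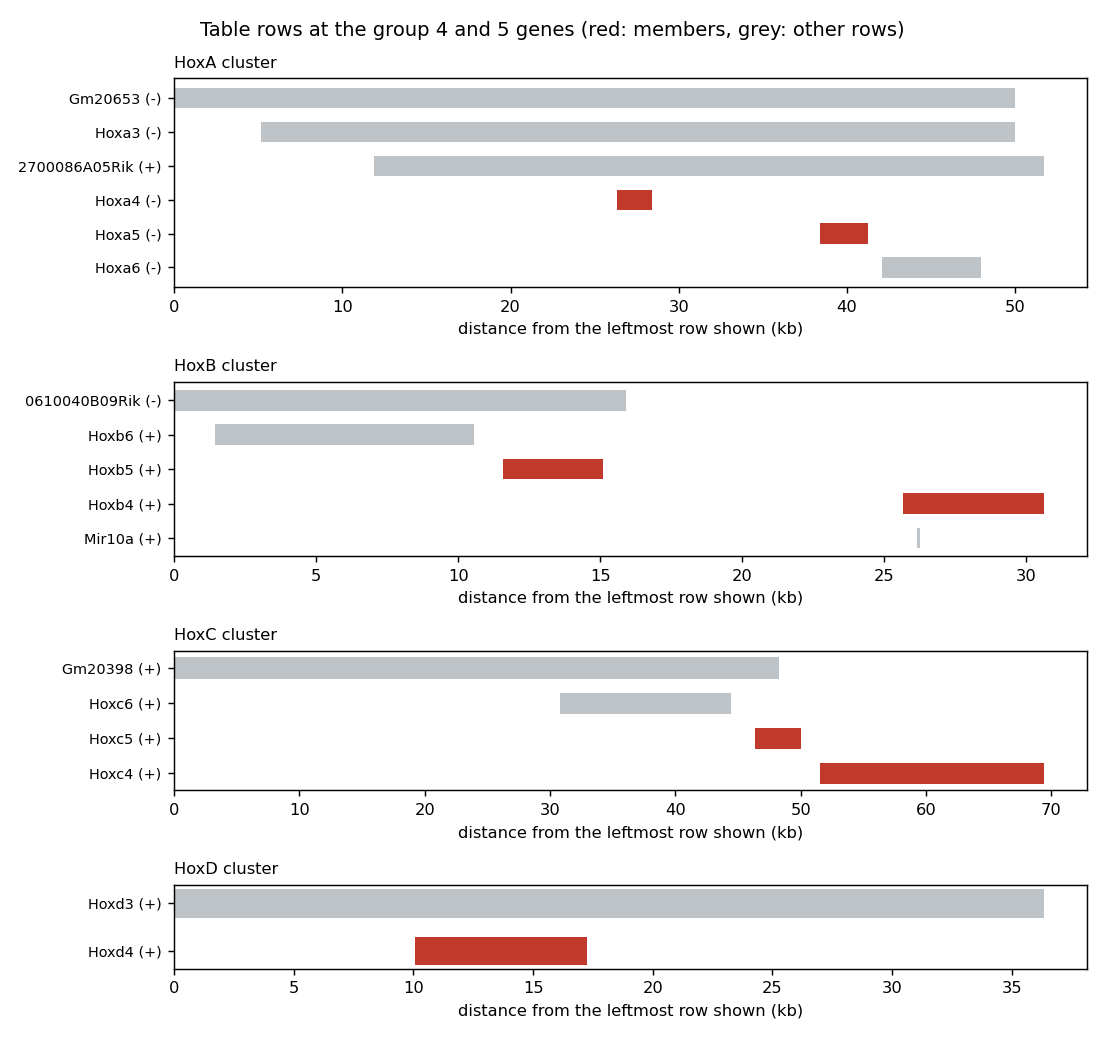
Position of the table rows that hold or overlap the 7 members, as distance in kb from the leftmost row shown in each cluster, with the strand in brackets. Hoxa4 and Hoxa5 lie inside 3 longer rows, Hoxd4 lies inside Hoxd3 and Hoxb5 inside 0610040B09Rik, whereas Hoxb4 and Hoxc4 lie inside none.

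Hoxa4 and Hoxa5 lay wholly inside the rows of Hoxa3, Gm20653 and the opposite-strand 2700086A05Rik, which has the coordinates of Hoxaas3 in GENCODE M21. Hoxa5 reads equalled 12.8% to 14.5% of the reads of the Hoxa3 row over the 7 libraries, and Hoxa4 reads 3.69% to 4.89%. Hoxd4 lay inside Hoxd3, and its reads equalled 35.3% to 36.3% of the Hoxd3 reads, so the share of this row hardly moved between libraries. Hoxb5 lay inside 0610040B09Rik, the opposite-strand gene named Hoxb5os in GENCODE M21, and equalled 12.4% to 13.7% of its reads. Gm20398 covered 51.5% of the Hoxc5 row. Reads of Hoxb4 and Hoxc4 were shared with no longer row.

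RefSeq promoter windows on GRCm38.p6 were at hand for 4 of the 7 members, and they show where in each row a RefSeq start site lies. GENCODE M21 begins 2 of these genes elsewhere. It begins Hoxc4 at chr15:103018934, next to the start of its row, and Hoxd4 at chr2:74711929, before its row. The RefSeq start sites of Hoxd4 and Hoxa5 coincide with the ends of their rows. The Hoxb4 row begins 1583 bases before the RefSeq start site, and the Hoxc4 row 15459 bases before it, which is 86.3% of that row, and how the reads of that row divide between the sides of this start is not given by the table. Windows of 300 bases were searched on both strands for AGGTCA (a half-site of retinoid receptors), TTTATG (a core bound by Cdx proteins), TGATTNAT (bound by Pbx-Hox pairs) and TAATTA (a homeodomain core). The 250 bases before the start are printed 5' to 3' on the gene's strand, with matches in capitals, to show the letters next to the start. Regulatory elements farther from the start were not searched.
Hoxd4 (chr2:74721728-74722027, plus strand): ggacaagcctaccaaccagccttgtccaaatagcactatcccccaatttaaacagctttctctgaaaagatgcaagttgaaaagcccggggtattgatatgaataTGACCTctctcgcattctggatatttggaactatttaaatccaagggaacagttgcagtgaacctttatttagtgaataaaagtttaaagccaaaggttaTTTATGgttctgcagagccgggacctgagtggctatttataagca
Hoxa5 (chr6:52204538-52204837, minus strand): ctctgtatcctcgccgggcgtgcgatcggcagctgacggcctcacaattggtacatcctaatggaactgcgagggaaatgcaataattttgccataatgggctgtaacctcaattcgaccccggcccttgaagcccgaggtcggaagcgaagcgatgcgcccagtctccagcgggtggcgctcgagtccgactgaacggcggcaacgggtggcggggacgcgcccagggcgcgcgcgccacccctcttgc
Hoxb4 (chr11:96318017-96318316, plus strand): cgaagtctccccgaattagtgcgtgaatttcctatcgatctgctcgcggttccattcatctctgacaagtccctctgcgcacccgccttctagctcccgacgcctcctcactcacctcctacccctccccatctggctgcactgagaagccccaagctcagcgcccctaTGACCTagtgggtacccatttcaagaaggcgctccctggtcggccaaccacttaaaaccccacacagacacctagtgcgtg
Hoxc4 (chr15:103034145-103034444, plus strand): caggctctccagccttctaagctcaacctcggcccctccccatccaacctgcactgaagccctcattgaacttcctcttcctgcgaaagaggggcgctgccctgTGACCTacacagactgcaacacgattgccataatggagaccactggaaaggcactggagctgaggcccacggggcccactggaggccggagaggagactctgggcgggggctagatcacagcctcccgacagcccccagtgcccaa
AGGTCA, read on either strand, occurred once in each of these 4 windows, and in 16.2% of all 32544 windows. In Hoxa5 it lay 41 bases after the start site and is not in the printed stretch. TTTATG occurred in the Hoxd4 window alone, 45 bases before and 21 bases after the start, and in 11.9% of all windows. TGATTNAT (3.23% of all windows) and TAATTA (5.29%) had no match in the 4. A match is a description of the letters, not evidence of binding.

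The Hoxb4, Hoxd4 and Hoxc5 rows also hold a microRNA gene each, Mir10a, Mir10b and Mir615, and the mature products are shown with the seed, bases 2 to 8, in capitals because the first pair are paralogues just as their neighbouring Hox genes are.
mmu-miR-10a-5p (in the Hoxb4 row): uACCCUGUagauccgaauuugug
mmu-miR-10b-5p (in the Hoxd4 row): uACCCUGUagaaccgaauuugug
mmu-miR-615-3p (in the Hoxc5 row): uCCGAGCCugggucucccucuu
The miR-10 products share the seed ACCCUGU, and miR-615-3p has another. In the table the Mir10a row had 5 to 9 reads in null and 6 to 10 in wild-type libraries, and the Mir615 row 2 to 3 and 2 to 6. These rows count RNA fragments over the hairpin genes and do not measure mature microRNA.

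Reads in listed rows numbered 22137823 to 23847381 in the null and 19622596 to 23548995 in the wild-type libraries. Values are given as RPM, reads scaled to the library denominator behind the deposited log2 values, and reads in rows made up 34.3% to 37.4% of it in null and 28.8% to 37.9% in wild-type libraries. The deposited scale therefore carries a shift between groups, with a median log2 difference of 0.16 over all tested genes. The same differences were also taken after subtracting the autosomal median of each library, here called the centred scale. Smchd1 had 1922 to 2372 reads in null and 5572 to 6552 in wild-type libraries, so each library stood on the side of its label. All 12 listed presomitic mesoderm markers passed the filter, with Tbx6 at a mean of 44.8 RPM in null and 36.5 RPM in wild-type libraries. Passing does not identify the tissue. Every listed marker of lateral plate and intermediate mesoderm (12), notochord (5), hindgut (5), blood (6) and endothelium (6) passed as well. The endothelial marker Kdr was at a mean of 62.2 RPM in null and 46.1 RPM in wild-type libraries. Wild-type library B stood apart, with 200 reads of Cyp26a1, the tailbud enzyme that degrades retinoic acid, against 2497 to 3100 in null libraries and 2033 and 2391 in the other wild-type libraries. The mean of the 12 presomitic mesoderm genes, as a centred log2 deviation from its mean over libraries, was 0.01 to 0.24 in null libraries, and -0.92 in wild-type library B against 0.00 and 0.22 in wild-type libraries A and C. The members' own counts, 341 to 6027 reads per library, carried a counting error of 5.42% at the smallest and 1.29% at the largest, for counting error alone.

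None of the 7 genes differed between null and wild-type tissue past the test, on either scale. In the fit across all 13997 genes, limma called 0 of the 7 members on each scale, at a Benjamini-Hochberg adjusted p under 0.05. Of all tested genes it called 6 (0.0429%) on the deposited scale, 0.0357% as higher and 0.00714% as lower in null tissue. After centring it called 8 (0.0572%), 0.05% as higher and 0.00714% as lower. The voom variant of limma on recovered reads also called 0 members. At an unadjusted p under 0.05, 1 of the 7 members was higher in null tissue on each scale, Hoxc5 both times, and 0 were lower. Of all tested genes 13.9% were higher and 0.114% lower at that limit on the deposited scale, and 7.29% and 6.71% after centring. Deposited log2 differences, null minus wild-type, ran from -0.03 for Hoxb4 to 0.37 for Hoxc5 with a median of 0.25, against the median of 0.16 for all genes. Centred differences ran from -0.23 for Hoxb4 to 0.18 for Hoxc5 with a median of 0.06, against -0.03 for all genes. Above 0 were 6 of 7 members on the deposited scale, where 92.7% of all tested genes were, and 4 of 7 on the centred scale, where 42.5% were. A miss of the threshold does not show equal levels, and the 95% intervals are given with each gene. In bulk tissue, fewer cells that express a gene and less RNA per cell cannot be told apart.

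**Figure D2:**
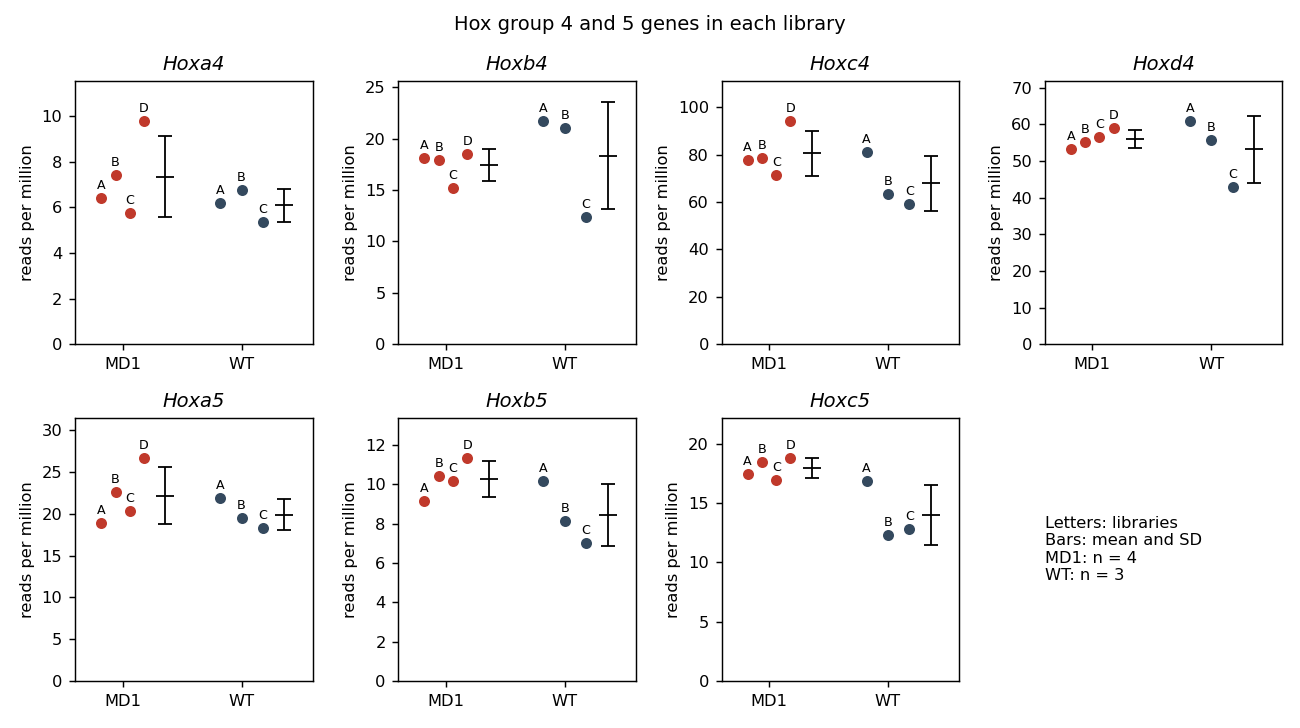
RPM of each member in each library, with the 4 null (MD1) libraries left of the 3 wild-type (WT) libraries. Letters name libraries, and bars give mean and SD. The groups overlap in every panel except Hoxc5, where the lowest null library (16.98) lies just above the highest wild-type library (16.89).

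Among the group 4 genes, Hoxa4, which helps specify cervical vertebrae, was the weakest in RPM. It had 6.40, 7.43, 5.76 and 9.77 RPM in null libraries A to D, and 6.17, 6.74 and 5.33 RPM in wild-type libraries A to C. Null library D was the highest of all 7, and the other null libraries lay among or close to the wild-type ones. The log2 difference was 0.25 (SE 0.20, 95% interval -0.18 to 0.68, limma adjusted p = 0.552) and 0.06 after centring (-0.37 to 0.48, adjusted p = 0.884).

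Hoxb4, best known for expanding blood stem cells when overexpressed, had 18.1, 17.9, 15.2 and 18.5 RPM in null libraries A to D. In wild-type libraries A to C it had 21.7, 21.01 and 12.3 RPM, so that the null values lay between wild-type library C and the other two. Wild-type libraries alone had an SD of 0.46 in log2, against 0.13 in null libraries. The log2 difference was -0.03 (SE 0.19, 95% interval -0.43 to 0.37, limma adjusted p = 0.912), and -0.23 after centring (-0.59 to 0.14, adjusted p = 0.467). Hoxb4 had the lowest difference of the 7 on both scales.

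Hoxc4, which is needed for a normal oesophagus in mice, had the most RPM of the 7, over the longest row (17.9 kb). It had 77.8, 78.5, 71.5 and 94.1 RPM in null libraries A to D, and 81.1, 63.4 and 59.0 RPM in wild-type libraries A to C. Wild-type library A stood within the null range and the other wild-type libraries below it. After centring, the wild-type libraries came to within an SD of 0.02 of each other. The log2 difference was 0.25 (SE 0.13, 95% interval -0.03 to 0.53, limma adjusted p = 0.402) and 0.06 after centring (-0.13 to 0.25, adjusted p = 0.704).

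Hoxd4, whose neural expression in mouse depends on retinoic acid response elements, had 53.4, 55.3, 56.5 and 59.1 RPM in null libraries A to D. In wild-type libraries A to C it had 60.9, 55.7 and 43.0 RPM. The null libraries lay close together, and the wild-type libraries spread above and below them. The log2 difference was 0.09 (SE 0.13, 95% interval -0.18 to 0.36, limma adjusted p = 0.69) and -0.10 after centring (-0.26 to 0.05, adjusted p = 0.443), so its sign depends on the scale.

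Among the group 5 genes, Hoxa5 is needed for lung and respiratory tract development. It had 18.96, 22.7, 20.4 and 26.7 RPM in null libraries A to D, and 21.9, 19.6 and 18.3 RPM in wild-type libraries A to C. Null library D was again the highest, and the rest of both groups overlapped. The log2 difference was 0.15 (SE 0.14, 95% interval -0.16 to 0.46, limma adjusted p = 0.604) and -0.04 after centring (-0.28 to 0.19, adjusted p = 0.829).

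Hoxb5, which acts in the enteric neural crest and in positioning the shoulder girdle, had 9.14, 10.4, 10.2 and 11.3 RPM in null libraries A to D. In wild-type libraries A to C it had 10.2, 8.13 and 7.03 RPM. Wild-type library A reached the null range, and the other wild-type libraries lay below it. The log2 difference was 0.30 (SE 0.17, 95% interval -0.06 to 0.66, limma adjusted p = 0.429) and 0.10 after centring (-0.09 to 0.29, adjusted p = 0.516).

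Hoxc5, which together with Hoxa5 maintains the phrenic motor neurons of the neck, had 17.5, 18.5, 16.98 and 18.8 RPM in null libraries A to D. In wild-type libraries A to C it had 16.89, 12.3 and 12.8 RPM. It was the 1 member of 7 whose groups did not overlap on the deposited scale, all null libraries being higher, by a narrow margin to wild-type library A. Of all tested genes 7.02% had that pattern and 0.0572% the opposite one. After centring the groups overlapped in all 7 members, and of all tested genes the shares with every null library above or below were 6.51% and 6.24% of all tested genes. The log2 difference of Hoxc5 was 0.37 (SE 0.14, 95% interval 0.06 to 0.68, unadjusted p = 0.0229, limma adjusted p = 0.298) and 0.18 after centring (0.01 to 0.35, adjusted p = 0.352).

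**Figure D3:**
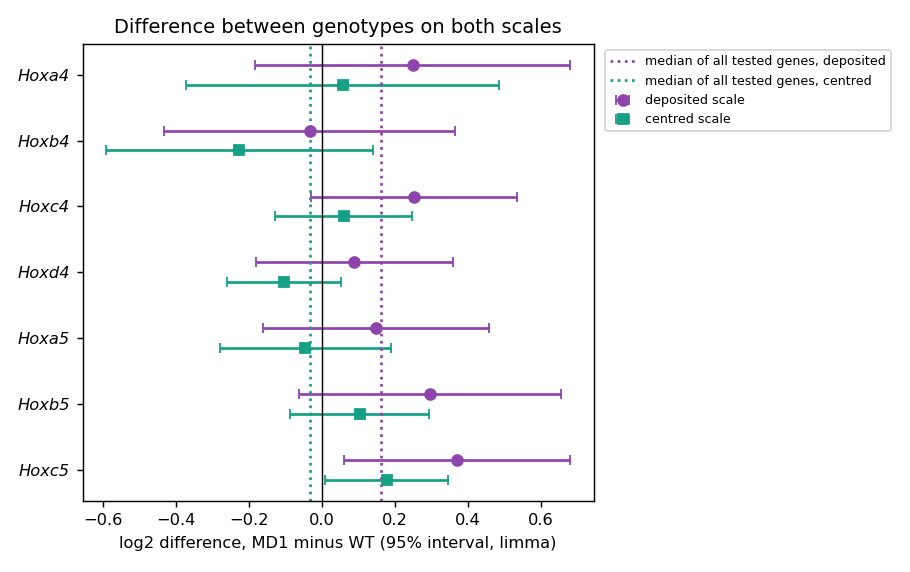
Log2 difference of each member, null (MD1) minus wild-type (WT), with 95% intervals from limma on the deposited and the centred scale, and dotted lines at the median of all tested genes. Every member is shifted toward lower values by centring, and the Hoxc5 interval is the one that lies above 0 on both scales.

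Calls among the members depended on wild-type library A. Without it, 3 of the 7 were called on the deposited scale, Hoxc5 (0.51, limma adjusted p = 0.0235), Hoxc4 (0.39, adjusted p = 0.0338) and Hoxb5 (0.44, adjusted p = 0.042), but 4205 of all tested genes were then called as well, and on the centred scale 0 members were called. The median deposited log2 value of tested genes was 4.19 in that library, against 3.85 and 3.77 in wild-type libraries B and C and 4.04 to 4.19 in the null libraries. Column names end in 18, 21 or 22, and each of these numbers occurs in both groups. Within number 21, null library D was above wild-type library C in all 7 members, by 0.46 to 0.87 in log2 and by 0.04 to 0.46 after centring. Within number 18 (null A, wild-type B) and within number 22 (null B and C, wild-type A), 3 of 7 members each were above 0, and after centring 2 and 4. The first number of the column name, 4180, is also shared between groups, by null library D and wild-type libraries B and C, and 4168 is shared by null libraries B and C. Within 4180 all 7 members were above 0, by 0.20 to 0.71 in log2, and 5 of 7 after centring (-0.18 to 0.33), with 1 null library and no test. What these numbers stand for is not stated in the labels, and libraries that share one may not be independent.

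The rows differ in length, so levels were compared between genes as RPM per kb of row. Hoxa5 averaged 7.83 ± 1.19 in null and 7.03 ± 0.65 in wild-type libraries (SD, n = 4 and n = 3), and Hoxd4 7.80 ± 0.33 and 7.41 ± 1.28. These 2 took the first 2 places in each of the 7 libraries and did not differ from each other beyond their spread. Hoxc5 followed at 4.96 ± 0.23 in null and 3.88 ± 0.69 in wild-type libraries, and Hoxc4 at 4.49 ± 0.54 and 3.79 ± 0.65. Hoxa4 had 3.52 ± 0.85 in null and 2.92 ± 0.34 in wild-type libraries, and Hoxb4 had 3.52 ± 0.31 and 3.70 ± 1.05. Hoxb5 was lowest at 2.91 ± 0.26 in null and 2.39 ± 0.45 in wild-type libraries, and last in 6 of 7 libraries. From Hoxc5 down, each gene's range over libraries overlapped that of the next in both groups, and the gap between the first pair and Hoxc5 was, in each group, the one step without overlap. Since introns are counted, these densities are not transcript numbers, and the rows with a low exon share, Hoxc4 and Hoxd4, are diluted most.

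**Figure D4:**
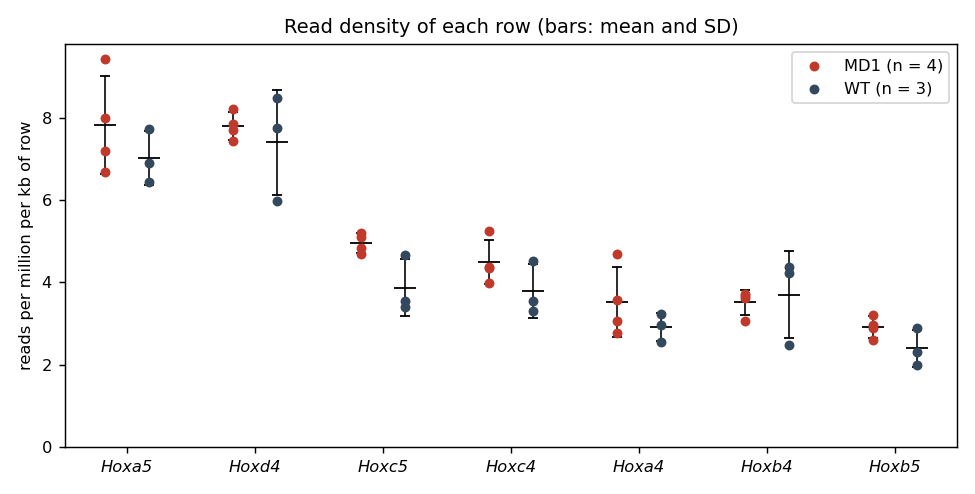
RPM per kb of row for each member, ordered by the null mean, with null (MD1) left of wild-type (WT) points and bars for mean and SD. Hoxa5 and Hoxd4 are at 5.99 or above in every library, and the other 5 genes lie between 1.99 and 5.25.

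The balance of neighbours within a cluster does not depend on how a library is scaled. The log2 ratio of Hoxa5 to Hoxa4 averaged 1.61 ± 0.16 in null and 1.71 ± 0.16 in wild-type libraries, a difference of -0.10. The log2 ratio of Hoxb5 to Hoxb4 averaged -0.76 ± 0.17 in null and -1.09 ± 0.28 in wild-type libraries, a difference of 0.33. That of Hoxc5 to Hoxc4 averaged -2.16 ± 0.11 in null and -2.28 ± 0.08 in wild-type libraries, a difference of 0.12 (SD, n = 4 and n = 3). In the two-sided exact permutation test over 35 splits these gave p = 0.514, 0.114 and 0.229, and 0.514, 0.343 and 0.343 when adjusted over the 3 ratios. A single split of the 35 is a share of 0.0286, which the two-sided p counts once for each direction. With 4 against 3 libraries this p could therefore not fall under 0.05, whatever the values. Ranges overlapped in all 3 ratios, and for Hoxb5 to Hoxb4 they ran from -0.99 to -0.58 in null and from -1.37 to -0.81 in wild-type libraries.

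The mean of the 7 genes moved more between libraries of a group than between the groups. On the centred scale it was 0.31 ± 0.13 in null and 0.30 ± 0.10 in wild-type libraries (SD, n = 4 and n = 3). Relative to the mean over all libraries, null library D (0.13) and wild-type library B (0.11) were highest and null library C (-0.18) lowest. Hoxa4 and Hoxb4 varied most, with ranges of 0.76 and 0.80 in log2 over the 7 libraries, and Hoxb5 least, with 0.27. Of all tested genes, 78.8% had a smaller range than Hoxa4, 80.2% a smaller one than Hoxb4 and 31.6% a smaller one than Hoxb5.

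Lists of other cell types moved between libraries too. The mean of 8 tested neural tube genes, relative to its mean over libraries, was 0.57 in null library D and 1.30 in wild-type library B, and -1.42 in null library C. These were also the libraries with the 2 highest means and the lowest mean of the 7 Hox genes. In the remaining libraries it was 0.29 (null A), -0.45 (null B), 0.08 (wild-type A) and -0.37 (wild-type C). The mean of 6 tested somite genes was 0.14, -0.31, -0.27 and 0.34 in null libraries A to D, and 0.21, 0.17 and -0.28 in wild-type libraries A to C. Null library B was low for both lists, while its mean of the 7 Hox genes (0.06) was above average. The summed level of the 12 neural tube markers was 40.5 to 93.8 RPM in null and 51.3 to 129 RPM in wild-type libraries, and that of the 12 somite markers 42.7 to 95.9 and 33.2 to 103 RPM. No marker of either list had 0 reads in all libraries. Pax1, Myog and Dbx1, which mark sclerotome, differentiating muscle and interneuron progenitors, had the fewest, 0 to 2 in null and 0 to 1 in wild-type libraries. They do not stand for their lists, of which 6 somite and 8 neural tube markers passed the filter. Pax9, for example, had 193 to 836 reads in null and 28 to 284 in wild-type libraries. The part of these tissues in the Hox values was not tested.

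Hox genes of groups 11 to 13, at the 5' end, spread more widely over the same libraries. The centred mean of the 8 tested genes of groups 11 to 13 had a range of 4.39 in log2, against 0.31 for groups 4 and 5, 0.52 for groups 1 to 3, 0.25 for groups 6 to 8 and 0.16 for groups 9 and 10. Wild-type library B was at -3.01 for groups 11 to 13 and null library A at -0.81, while for groups 4 and 5 they were at 0.11 and -0.01. These are descriptions of the 7 libraries, and a difference between the sets was not tested.

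**Figure D5:**
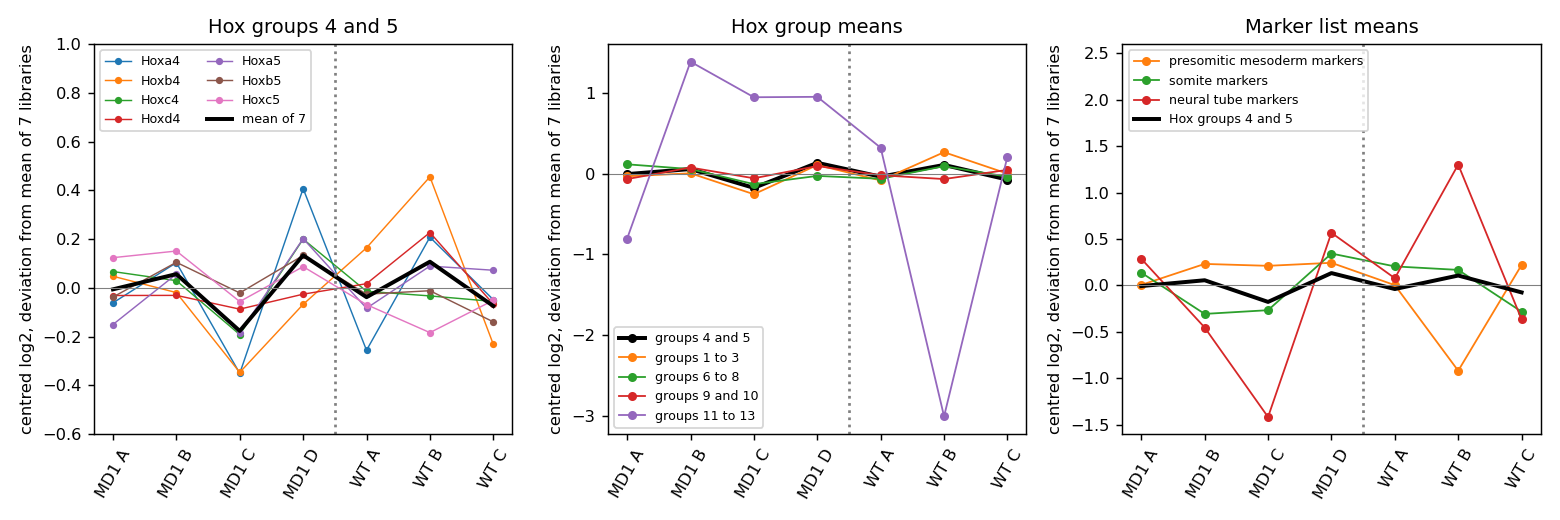
Centred log2 values as deviations from the mean of the 7 libraries, null (MD1) libraries left of wild-type (WT) ones, with lines joining points of one gene or list as a guide to the eye. The members span ranges of 0.27 to 0.80 (left), groups 11 to 13 fall to -3.01 in wild-type library B (middle), and neural tube markers range from -1.42 to 1.30 (right).

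Known regulators and partners of these genes were read from the same fit. Of 14 tested genes of Cdx factors and retinoic acid signalling 0 passed in either direction, with a median log2 difference of 0.08. The smallest p values were those of the X-linked Cdx4, an activator of Hox genes (0.63, centred 0.44, limma adjusted p = 0.107), and of Cyp26a1 (1.52, centred 1.33, adjusted p = 0.3). The deposited Cyp26a1 difference was 0.36 once wild-type library B was left out. Of 9 Hox cofactors, the Pbx, Meis and Pknox proteins that bind DNA with Hox factors, 0 passed, with a median of 0.09. Pbx4 had a difference of 0.44 (centred 0.25, adjusted p = 0.502) and Meis1 of -0.27 (centred -0.46, adjusted p = 0.534). Of 18 chromatin regulators of Hox clusters, from the Trithorax and Polycomb systems and CTCF, 0 passed, with a median of 0.10. Ezh1, a Polycomb methyltransferase, had 0.53 (centred 0.33, adjusted p = 0.245) and Bmi1, a Polycomb subunit, 0.42 (centred 0.23, adjusted p = 0.262). All 3 medians lay below the 0.16 of all tested genes.

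Neighbours in the clusters gave the same count. Of 8 tested genes each in groups 1 to 3 and groups 6 to 8, 0 passed, with median log2 differences of 0.08 and 0.20. The smallest p values were those of Hoxa3 (0.22, centred 0.03, limma adjusted p = 0.435) and Hoxb3 (0.11, centred -0.08, adjusted p = 0.66), and of Hoxa7 (0.35, centred 0.16, adjusted p = 0.224) and Hoxc8 (0.28, centred 0.09, adjusted p = 0.329). Of 8 tested non-coding neighbours 0 passed, with a median of 0.23. Hotair, a long non-coding RNA of the 5' part of HoxC, had 2.93 (centred 2.73, adjusted p = 0.255) and Hoxa11as, the antisense transcript of Hoxa11, 1.04 (centred 0.85, adjusted p = 0.308). Of these neighbours, 2 in groups 1 to 3 (Hoxa3 and Hoxd3) and 2 non-coding ones (2700086A05Rik and 0610040B09Rik) have rows that contain members and share reads with them. Hotair and Hoxa11as were at 0.107 and 8.14 RPM in wild-type library B, and without that library their differences were 1.38 and 0.37. Hotair then passed on the deposited scale (limma adjusted p = 1.63e-05) but not after centring (adjusted p = 0.71).

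The marker lists of the tissue and its surroundings also had 0 passing genes on either scale. These were 12 tested genes of presomitic mesoderm, 6 of somites, 8 of neural tube, 12 of lateral plate and intermediate mesoderm, 3 of neural crest, 5 of notochord, 5 of hindgut, 6 of blood and 6 of endothelium. Their median log2 differences were 0.54 for presomitic mesoderm, -0.22 for somites, -0.35 for neural tube and -0.16 for lateral plate and intermediate mesoderm. For notochord the median was 0.82, for hindgut 0.73, for blood 0.04 and for endothelium 0.37. On this deposited scale the median of all tested genes was 0.16. After centring, where it was -0.03, presomitic mesoderm was at 0.35, somites at -0.42, neural tube at -0.55 and lateral plate and intermediate mesoderm at -0.35. Centred notochord was at 0.62, hindgut at 0.54, blood at -0.15 and endothelium at 0.17. The smallest p values of these lists were those of T (0.76) and Fgf8 (0.87), Pax9 (2.07) and Foxc2 (-0.56), Irx3 (-0.55) and Sox3 (-0.63), and Pax2 (0.79) and Wt1 (-0.55). For the other lists they were those of Erbb3 (0.83), Noto (1.23) and Chrd (1.00), Cdh1 (0.81) and Epcam (0.53), Alas2 (0.47), and Kdr (0.50) and Pecam1 (0.48), all as deposited log2 differences that did not pass. Most of the deposited medians depended on wild-type library B. Without it they were 0.24 for presomitic mesoderm, 0.15 for somites, -0.02 for neural tube and -0.36 for lateral plate and intermediate mesoderm. Blood was then at -0.17, hindgut at 0.40 and endothelium at 0.09. The notochord median without that library was 0.79, close to the 0.82 with all libraries. T was then at 0.41, Fgf8 at 0.34 and Pax9 at 0.97 (limma adjusted p = 0.00582, and 0.71 after centring). Null library C also moved the neural tube median, which was -0.01 without it, and the somite median was -0.02 without null library B and 0.02 when wild-type library A was left out. With all 7 libraries or with any 1 left out, no gene of any list passed after centring, whereas on the deposited scale some list genes passed when null A, wild-type A or wild-type B was left out.

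The genes closest to the mean profile of the 7 members were Ptpn14, Dnahc11, Ptch1, Tmem191c and Kdm4b. Likeness was the root mean square difference between centred deviations over the 7 libraries, which was 0.01, 0.02, 0.03, 0.03 and 0.04 in log2 for these genes, among 11767 candidates. The members themselves differed from their own mean profile by 0.07 to 0.19. The 5 genes were picked as the nearest of all candidates, so their smaller distances follow from that choice. None of the 5 rows overlaps the row of a member.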

How the data were processed

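RNA-seq libraries of 4 null and 3 wild-type samples were used. The submitters' processing notes name TopHat2 2.0.12, bcl2fastq, edgeR and build mm10, with no order, and no counting tool, strand setting or annotation is named there or in the labels. The deposited file holds log2 RPM values for 25965 rows and 7 libraries, made by the authors. Empty rows were listed at 0.9 read, and 100% of low values (under 1000 reads) lay within 0.01 of a whole read number, so reads were recovered. Denominators were 59.2 to 68.2 M reads. Columns carry a genotype and were assigned to groups only.

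Genes whose log2 value exceeded 0 in 3 or more libraries were tested with limma 3.58.1 (R 4.3.3), using a trended prior on the values as deposited, and p-values were adjusted over all 13997 genes by Benjamini-Hochberg at 0.05. The fit was also run on simulated log2 values with noise drawn independently for each gene and library. Shifts shared by the genes of a library were not simulated, so that run does not show how the fit behaves under them. Ratios were compared by exact permutation (scipy 1.17.1). Named genes were the 7 members, Smchd1, the 2 tested genes with the smallest p of each regulator, cofactor, neighbour and marker list (any called gene first) and the 5 genes closest in profile. Of the genes this rule names, 2 in the marker lists are not reported here. Further genes are named where a row overlaps a member or checks a library. Members and lists were chosen with earlier results of these data known. For 9 of 10 listed names missing from the table a row was found by coordinates or RefSeq synonym. The pairs of rows, one inside the other, are the basis for how rows were counted.

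Alternatives were other filters, a pseudocount of 1, centring, quantile and cyclic loess normalization, other priors, voom on recovered reads (planned count tests with other tools were not run because the deposited unit is log2), leaving out each library, and blocks on the last number of the column name. Leaving out the libraries numbered 18 was chosen after seeing the data.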

Additional observations from a re-analysis of the deposited data

Results flagged for a closer look

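In the 4 null libraries the gap between an extreme value and its nearest neighbour was compared with the whole range, for each member on both scales and for the 3 ratios, 17 sets in all. Chance flags about 1 in 20 such sets. Null library C stood apart in both sets that passed the limit of 0.829. Its Hoxb4 log2 value of 3.92, against 4.16 to 4.21 in the other null libraries, gave a gap of 0.848 of the range. Its centred Hoxd4 value of 1.63, against 1.69 in each of the others, gave a gap of 0.911 of a range that was itself small, with an SD of 0.03 over the null libraries.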

How the results depend on the processing

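Of the alternatives run, 1 called members: without wild-type library A on the deposited scale, Hoxc4, Hoxb5 and Hoxc5 were called. All others called 0 of 7, so the members called ranged from 0 to 3 when 1 library was left out. Hoxb5, Hoxc4 and Hoxc5 were above 0 in all 28 settings, and Smchd1 was called in every one. The 3 ratios kept their direction under a pseudocount of 1 and when 1 library was left out. Their permutation test could not have reached the threshold, with all 7 libraries or with 1 left out.

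The count of all called genes, 6 as deposited, was 105 with log2 above 1 in every library, 12 with a pseudocount of 1, 16 after quantile normalization, 19 after cyclic loess, 3 with no prior trend and 53 with a robust prior. Leaving out 1 library gave 2 to 4205 genes on the deposited scale (157 and 3 without null A or B, and 4205, 150 and 2 without wild-type A, B or C) and 4 to 10 after centring. Leaving out the libraries numbered 18 gave 257. The cause was not tested. Non-overlapping members, 1 as deposited, numbered 0 after centring, 0 to 3 when 1 library was left out, and 2 without the libraries numbered 18. For these reduced sets of libraries the share over all tested genes was not taken. Groups with fewer libraries fail to overlap more often by chance, so these counts do not single out the members.

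Differences that changed sign were uncalled. Hoxd4 was at -0.103 and Hoxa5 at -0.045 after centring, at -0.038 and -0.021 after quantile normalization, and at -0.035 and -0.019 after cyclic loess. Without the libraries numbered 18, Hoxb4 was at 0.066 and Hoxd4, centred, at -0.023. With 1 library left out on the deposited scale, Hoxb4 ranged from -0.297 to 0.110 and Hoxd4 from -0.057 to 0.194. With 1 library left out after centring, Hoxa4 changed sign without null library D (-0.071) and without wild-type library A (-0.055). Centred Hoxd4 was then below 0 throughout, at -0.107 without null library A or B, -0.089 without C and -0.109 without D, and at -0.124, -0.019 and -0.166 without wild-type library A, B or C. Centred Hoxa5 was at -0.0012, -0.070 and -0.119 without null library A, B or D, and at -0.100, -0.013 and -0.022 without wild-type library A, B or C.

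Deviations from group means correlated at 0.36, -0.05, 0.20 and 0.41 (mean 0.23) between libraries with the same last number in the column name. Over the 8 pairs with different numbers they correlated at -0.36 to 0.25 (mean -0.11). Since 1 same-numbered pair was below 0.1, the numbers were not taken as pairing in the main fit. That choice rests on 1 pair, and whether same-numbered libraries share variation was not tested. A replicate block on this number gave 742 called genes and 0 called members, and the replicate block with centring put Hoxd4 at -0.096 and Hoxa5 at -0.025.

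The fits with edgeR and DESeq2 were not run, because the deposited values are log2. With 4 against 3 libraries, the members' 95% intervals on the deposited scale reached from -0.43 (Hoxb4) to 0.68 (Hoxa4 and Hoxc5).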
